A study of Mus musculus with 12 samples.

Results

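miR-210 is the microRNA most closely tied to low oxygen, and its mature strands were followed here across libraries of the vesicles shed by mesenchymal stem cells (MSCs), stromal cells able to turn into bone, cartilage or fat cells, grown from mouse bone marrow. Its members were the table rows mmu-miR-210-3p and mmu-miR-210-5p, 2 of 1978 annotated mouse miRNA rows, picked by name. The libraries came from extracellular vesicles, which are membrane particles that carry small RNA out of cells. There were 4 groups named PLL, NY, aFM and DZ, with 3 libraries each, lettered A, B and C. The labels give the same entries to all 12 libraries, namely SPF-grade C57BL/6 mice, bone marrow, mesenchymal stem cells and an antigen intervention. The design text adds that cells were kept for 48 h with tapeworm cyst (hydatid) antigens named ESPs, HCF and pLL, at 2 µg/ml. PLL carries the name of pLL, while the labels do not say what NY, aFM and DZ stand for or which group, if any, was left without antigen, so DZ serves below only as a common comparator. Nothing says whether replicates came from separate cultures or animals or whether animals were pooled. The p-values therefore set group differences only against the variation between these libraries, and that variation may be technical.

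As background, the gene of miR-210 is a target of the hypoxia-inducible factors, which are stabilised when oxygen falls. The miRNA then represses messenger RNAs of mitochondrial respiration, among them those of the iron-sulfur cluster scaffolds ISCU1 and ISCU2, and it has been followed as a marker of the hypoxia response in many cell types. Bone marrow stromal cells live at low oxygen in the animal and are usually grown in room air in culture. No label gives the oxygen level of these cultures.

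The sequences below, from RefSeq on GRCm38.p6, show what was counted: the mature strands first, with the seed (bases 2 to 8 from the 5′ end, the part that pairs with target messages) in capitals, and then the hairpin that carries them, with the arms in capitals.
miR-210-3p: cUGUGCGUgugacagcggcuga
miR-210-5p: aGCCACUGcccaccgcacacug
Mir210 hairpin: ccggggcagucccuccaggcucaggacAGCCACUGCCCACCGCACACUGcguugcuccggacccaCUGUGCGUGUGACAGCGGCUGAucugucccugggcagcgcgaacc
The hairpin gene Mir210 lies on the minus strand at chr7:141221384-141221493 (GRCm38, while the submitters' processing notes name mm39). The 5p arm takes positions 28 to 49 of its 110 bases, and the 3p arm takes positions 66 to 87. In the GENCODE M21 annotation, 0 other genes overlap it. It lies 2725 bases from Rassf7 and 7290 bases from Phrf1, so it is annotated as intergenic there. The strands are 22 bases long, with a G+C content of 63.6% for miR-210-3p and 68.2% for miR-210-5p. Among 1679 mature mouse miRNA names in the RefSeq table, all of which had a row in the count table, 0 others share the seed of either strand. miR-210-3p counts were identical to those of 0 other rows.

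mmu-miR-210-3p, the strand known to act in the hypoxia response, was a minor miRNA of these vesicles, and it was scarcest in aFM. It had 120 counts among 357613 annotated miRNA counts over all libraries, or 0 to 24 per library. By mean level over the 12 libraries it ranked 114 among the 132 miRNAs that passed the filter on low counts. It met that filter only through its highest libraries, namely DZ replicate A, PLL replicate B and NY replicate C. None of these is in aFM, so its entry into the tests rested on single libraries of groups where it was higher. Levels are given as CPM, or counts per 1000000 annotated miRNA counts. The 95% intervals (Clopper-Pearson) cover counting error alone and leave out variation between libraries. They may also be too narrow, because PCR copies of a molecule cannot be told from separate molecules when reads carry no molecular identifiers.

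In PLL the libraries held 331 CPM (202 to 511) in A, 678 CPM (435 to 1009) in B and 350 CPM (168 to 643) in C. In NY they held 232 CPM (93.5 to 479) in A, 256 CPM (117 to 486) in B and 779 CPM (488 to 1179) in C. In aFM they held 0 CPM (up to 161) in A, 113 CPM (23.3 to 330) in B and 67.6 CPM (8.18 to 244) in C. The highest aFM library thus lay below the lowest library of the other groups. In DZ, levels were 492 CPM (225 to 934) in A, 341 CPM (125 to 742) in B and 323 CPM (140 to 637) in C. These 9 values outside aFM overlapped among PLL, NY and DZ, and NY replicate C and PLL replicate B were the highest. The interval of NY replicate C did not overlap those of NY replicates A and B.

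**Figure D1:**
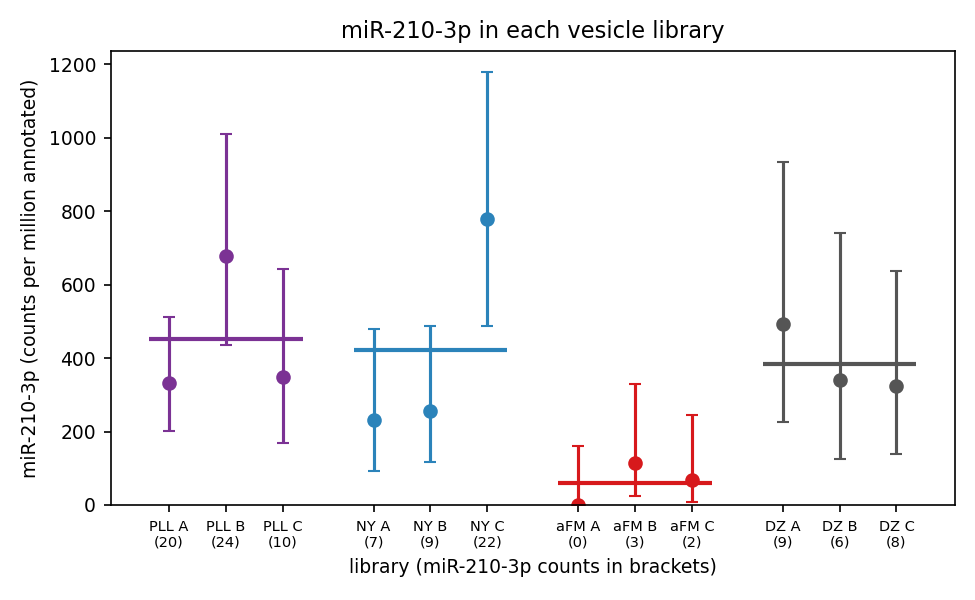
miR-210-3p in CPM of annotated miRNA counts (y axis) for each library (x axis, counts in brackets), grouped as PLL, NY, aFM and DZ. Points are libraries, bars are 95% Clopper-Pearson intervals for counting error and horizontal lines are group means; the 3 aFM libraries lie at 0 to 113 CPM, below all 9 others.

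The group means were 453 ± 195 CPM in PLL, 422 ± 309 in NY, 60.2 ± 56.8 in aFM and 385 ± 92.8 in DZ (SD, n = 3 each). PLL, NY and DZ, which came in that order from the top, differed by less than the spread between their libraries, and the order rested on NY replicate C, without which the NY mean was 244 CPM. Without aFM replicate B the aFM mean was 33.8 CPM. The aFM libraries stood apart from DZ, the next group up. The raw counts behind the aFM mean were 0, 3 and 2. At the pooled DZ share of 379 CPM, the same aFM libraries would have held 8.68, 10.1 and 11.2 counts. For aFM replicate A, with 0 counts, the two-sided interval above ends at 161 CPM, and the one-sided limit of 3 counts is 131 CPM, so its level was below detection at this depth and is not shown to be absent. The libraries of a group varied for miR-210-3p with a mean coefficient of variation of 58.7%, against 40.5% to 105% for the 10 tested miRNAs nearest to it in level. In vesicle preparations, fewer vesicles from one kind of cell and less miR-210 per vesicle cannot be told apart.

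Among the 132 tested miRNAs, 3 lay lower in all aFM libraries than in all 9 others (2.27%). The others, found after their values were seen, were miR-191-5p, a broadly expressed miRNA, and miR-23b-3p, a member of the miR-23/27/24 clusters. miR-191-5p averaged 6336 CPM in aFM against 9290 to 11439 in the other groups, and miR-23b-3p 1226 CPM in aFM against 2696 to 3549. The gap was proportionally wider for miR-210-3p, whose highest aFM value was 113 CPM and whose lowest other value was 232 CPM. Those 2 values rest on 3 counts in aFM replicate B and 7 in NY replicate A, and their counting intervals overlapped.

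The comparison of aFM with DZ asked how vesicle miRNAs differed between these groups. miR-210-3p fell in aFM, with 5 counts among 79062 annotated counts there and 23 among 60661 in DZ. The log2 fold change was -2.65 ± 0.79 (SE; 95% interval -4.37 to -0.93), with adjusted p = 0.0415 in edgeR's quasi-likelihood test, adjusted by Benjamini-Hochberg over the 132 miRNAs tested. The SE and 95% interval of each fold change, here and below, are approximations from the fold change and its F statistic. The intervals are not adjusted for the number of miRNAs tested. In this comparison 13 miRNAs (9.85% of those tested) were called lower and 12 higher, where a call is an adjusted p under 0.05. The split moved with the scaling, to 4 lower and 12 higher under RLE factors, 15 lower and 8 higher under upper quartile scaling, and 1 lower and 7 higher under library totals. It also moved with single libraries, to 0 lower and 5 higher when aFM replicate A or B was left out and 0 lower and 6 higher without DZ replicate B, and the total of 25 ran from 5 to 26 over the 12 libraries left out in turn. All aFM libraries lay below all DZ libraries, as was so for 12.9% of the miRNAs tested. The pooled counts gave a ratio of 0.167 (95% counting interval 0.0495 to 0.449). The median log2 fold change of all tested miRNAs was -0.14, so miR-210-3p lay 2.51 below the median miRNA. The call was lost when any 1 of the 12 libraries was left out, with adjusted p from 0.052 to 0.127, while the log2 fold change stayed between -3.43 and -2.22. Each fit with 1 library left out filtered anew and tested 143 to 147 miRNAs, so the set tested changed along with the library. With the replicate block the log2 fold change was -2.71 (adjusted p = 0.0651). The call also ended with RLE factors (adjusted p = 0.0535), library totals (0.0611) or no filter (0.118), and in a fit of aFM and DZ alone miR-210-3p did not pass the filter. It held with upper quartile factors (edgeR adjusted p = 0.0417), in a fit over all count rows (0.0480) and in DESeq2 (DESeq2 adjusted p = 0.0255).

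PLL and NY were also set against aFM, and miR-210-3p passed the test in PLL. In PLL, miR-210-3p rose to 54 counts among 124403, against 5 in aFM, with a log2 fold change of 2.88 ± 0.75 (SE; 95% interval 1.24 to 4.52; edgeR adjusted p = 0.0317). There 8 miRNAs (6.06%) were called higher and 4 lower (4 and 4 with RLE factors, and 0 higher and 4 lower without aFM replicate B, 1 and 3 without C and 1 and 4 without A), and 14.4% had all PLL libraries above all aFM libraries, miR-210-3p among them. The call was lost without any aFM library, any PLL library or DZ replicate A or C, with adjusted p up to 0.141, and the fold change stayed between 2.29 and 3.50. With the replicate block it was 2.92 (adjusted p = 0.0612), and the call also ended with RLE factors (0.0513) or no filter (0.0605). The call held with upper quartile factors (edgeR adjusted p = 0.0417), library totals (0.0493), all count rows (0.00157) and in DESeq2 (DESeq2 adjusted p = 0.0138). In NY, with 38 counts among 93487, the log2 fold change over aFM was 2.73 ± 0.76 (95% interval 1.06 to 4.39), and the edgeR adjusted p of 0.063 did not pass. All NY libraries were nonetheless above all aFM libraries, as was so for 28 of the 132 miRNAs (21.2%). The unadjusted edgeR p was 0.00385, smaller than the 0.00574 of aFM against DZ, which was called. The adjustment depends on the p-values of all miRNAs in a comparison, and 25 were called there against 5 here. A call in one and none in the other therefore does not rank these differences. The edgeR call rule picked 1 miRNA (0.758%) as higher in NY than in aFM and 4 as lower, and with RLE or upper quartile factors or library totals 0 and 4. Without any 1 aFM library it picked 0 as higher and 2 as lower, without any 1 NY library 0 and 1, and without PLL replicate A 3 and 9.

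The other comparisons gave small fold changes with wide intervals. For NY against DZ the log2 fold change of miR-210-3p was 0.077 (95% interval -1.30 to 1.45; edgeR adjusted p = 0.984), for PLL against DZ 0.23 (-1.12 to 1.58; adjusted p = 0.788) and for PLL against NY 0.15 (-1.14 to 1.44; adjusted p = 0.887). The intervals exclude neither higher nor lower levels within those bounds, so equal levels are not shown. None of their signs was stable when single libraries were left out. NY against DZ changed sign without any of 7 libraries, furthest without NY replicate C (-0.59), PLL against DZ without PLL replicate B (-0.28) or DZ replicate C (-0.070), and PLL against NY without PLL replicate B (-0.25) or NY replicate A or B (-0.17 and -0.086). The comparisons with aFM share the aFM libraries and those with DZ share the DZ libraries, so they are not independent of each other.

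**Figure D2:**
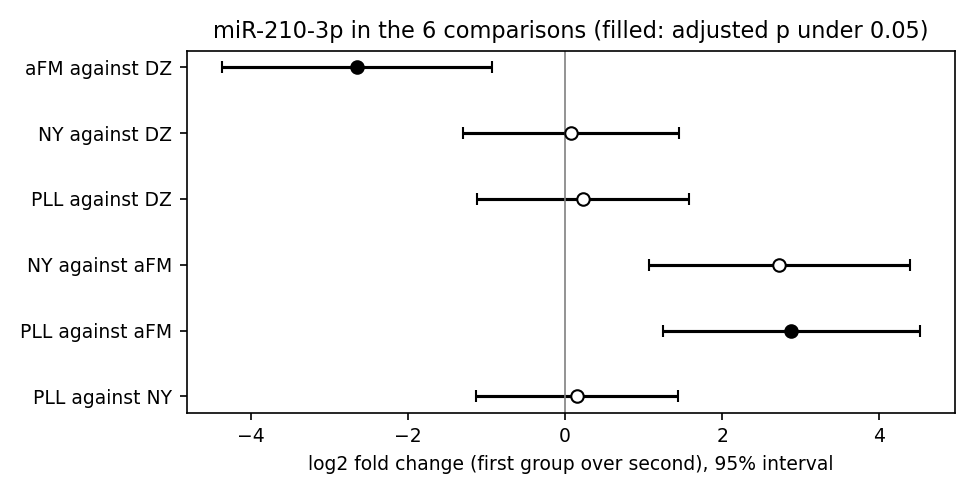
log2 fold change of miR-210-3p, first group over second (x axis), in the 6 comparisons (y axis). The 95% intervals are approximated from the fold change and F statistic of the edgeR fit and are unadjusted. Filled points have adjusted p under 0.05. The interval of each comparison that involves aFM excludes 0, with fold changes of -2.65, 2.73 and 2.88, and the other 3 intervals span 0.

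The joint test of any difference among the 4 groups had adjusted p = 0.0639 for miR-210-3p and did not pass, where 16 of 132 miRNAs (12.1%) did. An exact permutation test of the CPM over all 369600 arrangements of the 12 libraries gave p = 0.1204. For single pairs, an exact two-sided permutation test of 3 against 3 cannot go below p = 0.1. That value was reached in all 3 comparisons with aFM (adjusted p = 0.2 over 6 comparisons), and p was 0.6 to 1 in the others.

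The denominator changed how far the groups outside aFM stood apart, but not the order of the group means. The table also held 1531 rows of predicted loci with no miRNA name, and annotated miRNAs took 29.2% to 60.7% of all counts in PLL, 18.6% to 30.6% in NY, 10.7% to 19.9% in aFM and 10.3% to 21.6% in DZ. As CPM of all rows, miR-210-3p stood at 182 ± 31.2 in PLL, 91.4 ± 48.6 in NY, 10.3 ± 9.16 in aFM and 63.4 ± 11.1 in DZ (SD, n = 3 each). On that scale each PLL library was above each NY, aFM and DZ library, though the lowest of PLL (146 CPM of all rows) barely exceeded the highest of NY (145), and each aFM library was still below all others. The exact permutation test over the 4 groups then gave p = 0.0005195. In an edgeR fit over all rows, the log2 fold change in PLL against DZ was 1.78 (adjusted p = 0.0648), while the median annotated miRNA had 1.66, so miR-210-3p differed from the median miRNA by 0.13. Against aFM in that fit, miR-210-3p exceeded the median miRNA by 2.46 in PLL and by 2.39 in NY. In aFM against DZ it lay 2.28 below the median.

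**Figure D3:**
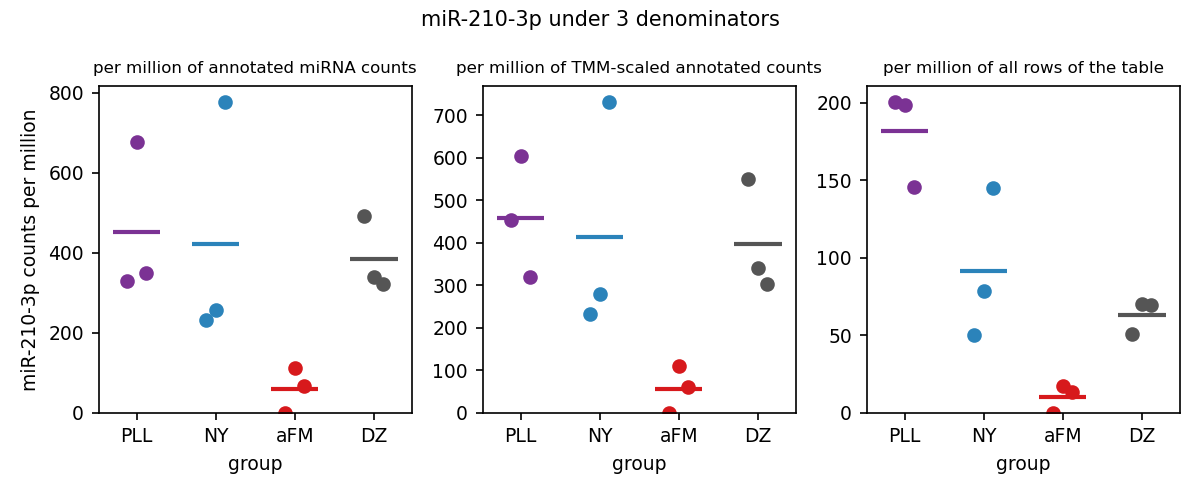
miR-210-3p as CPM of annotated counts, of TMM-scaled annotated counts and of the counts of all rows (y axes, each starting at 0) in PLL, NY, aFM and DZ (x axis); points are libraries and lines are group means. aFM is lowest in all 3 panels, and all PLL libraries lie above all NY and DZ libraries only where all rows are the denominator, at a PLL mean of 182 CPM.

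The other strand, mmu-miR-210-5p, is the one usually discarded when the hairpin is processed. It had 0 counts in each of the 12 libraries, which over all 357613 annotated counts allows up to 8.39 CPM, or up to 2.5 counts for each 100 of miR-210-3p. It did not pass the filter and was not tested, so 1 of the 2 strands entered the tests. Of 46 other miRNAs with 60 to 240 counts whose other arm had a row, 14 also had that arm at 0, and the median other arm had 6.5 counts. Summing the strands therefore left each fold change of miR-210-3p as it was.

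A list of 23 miRNAs reported to change with hypoxia in cultured cells was followed, which includes both miR-210 strands. It was chosen with earlier results of these data known, so the counts of its members are descriptions only. The list holds 18 reported to rise, of which 11 were tested, and 5 reported to fall, of which 2 were tested, making 13 in all. The 10 untested members, miR-210-5p among them, had 0 to 58 counts in all libraries together. In aFM against DZ, 2 of the 13 fell and 0 rose, where 18.9% of all tested miRNAs were called in either direction and 9.85% were called lower. The members that fell were miR-210-3p and miR-21a-5p, an abundant miRNA that hypoxia has been reported to raise. Without miR-210, 1 of the 10 tested members reported to rise was called, and their median log2 fold change was -0.050, against -0.14 for all tested miRNAs and -0.080 for the 13. miR-21a-5p held 68113, 80274 and 76520 CPM in aFM against 77722, 117226 and 121940 CPM in DZ (log2 fold change -0.58 ± 0.16, edgeR adjusted p = 0.0415). The aFM and DZ libraries overlapped, because DZ replicate A lay below aFM replicate B. Its call was lost without any aFM or NY library, DZ replicate B or C, or replicate C of PLL (highest edgeR adjusted p = 0.141). It was also lost with the replicate block (adjusted p = 0.0597) and in 7 further alternatives, among them DESeq2 (adjusted p = 0.121), RLE factors (0.0843) and no filter (0.445). The call held in 3 of 11 alternatives. Among these are the summed strands, which only repeat the main fit because miR-210-5p had 0 counts.

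In PLL against aFM, 3 of the 13 rose and 0 fell, where 9.09% of all tested miRNAs were called in either direction and 6.06% were called higher. The members that rose were miR-210-3p, miR-23a-3p and miR-23b-3p, and the median log2 fold change of the 13 was 0.61, against 0.31 for all tested miRNAs. Without miR-210, 2 of the 10 tested members reported to rise were called, with a median of 0.53. miR-23a-3p is encoded in a cluster with miR-27a and miR-24, and its close paralog miR-23b-3p in a sister cluster. Reads of one could have been counted for the other. The sequences of the called members that RefSeq holds are shown to compare their seeds, in capitals, with the seed of miR-210-3p above, which neither shares.
miR-21a-5p: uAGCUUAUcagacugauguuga
miR-23a-3p: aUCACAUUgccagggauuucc
miR-23a-3p held 3888, 1527 and 2238 CPM in PLL, against 786, 602 and 541 CPM in aFM (log2 fold change 2.26 ± 0.49, edgeR adjusted p = 0.0141), and its call was lost when replicate B or C of aFM was left out (edgeR adjusted p = 0.0864 and 0.0889). miR-23b-3p held 5527, 2148 and 2973 CPM in PLL, against 1135, 1393 and 1149 CPM in aFM (1.81 ± 0.48, edgeR adjusted p = 0.034). PLL replicate A was the highest library for both paralogs, and the PLL and aFM libraries did not overlap for either. Without PLL replicate A the log2 fold change of miR-23b-3p was 0.92 (adjusted p = 0.1), and its call was also lost without any aFM library or NY replicate A or C (adjusted p up to 0.141), with the replicate block (adjusted p = 0.0612), with RLE factors (0.0513) and in a fit of PLL and aFM alone (0.0657).

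In NY against aFM, 1 of the 13 rose, where 3.79% of all tested miRNAs were called in either direction. Only 1 of the 132 (0.758%) was called higher, so that miRNA was this member. It was miR-21a-5p, at 120401, 119440 and 112645 CPM in NY against 68113, 80274 and 76520 CPM in aFM (0.74 ± 0.16, edgeR adjusted p = 0.027). The call was lost without any aFM or NY library or replicates B and C of PLL, each left out alone (highest edgeR adjusted p = 0.216). It was also lost with the replicate block (adjusted p = 0.0684), RLE factors (0.0734), upper quartile factors (0.0927), library totals (0.123), no filter (0.242) and all rows (0.0994), and in DESeq2 (0.0731), where miR-210-3p was the member called (DESeq2 adjusted p = 0.0261). The remaining comparisons called 0 of the 13. In NY against DZ, where 0.758% of all miRNAs were called, the member of smallest p was miR-200b-3p, an epithelial miRNA reported to fall in hypoxia (log2 fold change -2.06 ± 0.80, edgeR adjusted p = 0.246). In PLL against DZ (3.79%) it was miR-26b-5p (1.45 ± 0.41, adjusted p = 0.0647), and in PLL against NY (6.82%) miR-23a-3p (1.34 ± 0.47, adjusted p = 0.111). DESeq2 called 0 members in NY against DZ, 2 in PLL against DZ and 0 in PLL against NY. Of the 132 tested miRNAs it called 6, 20 and 13 there. At an unadjusted edgeR p under 0.05 the members numbered 1, 3 and 3. The last of them by p ranked 12, 29 and 20 among the 132, so at least that many miRNAs met the rule.

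**Figure D4:**
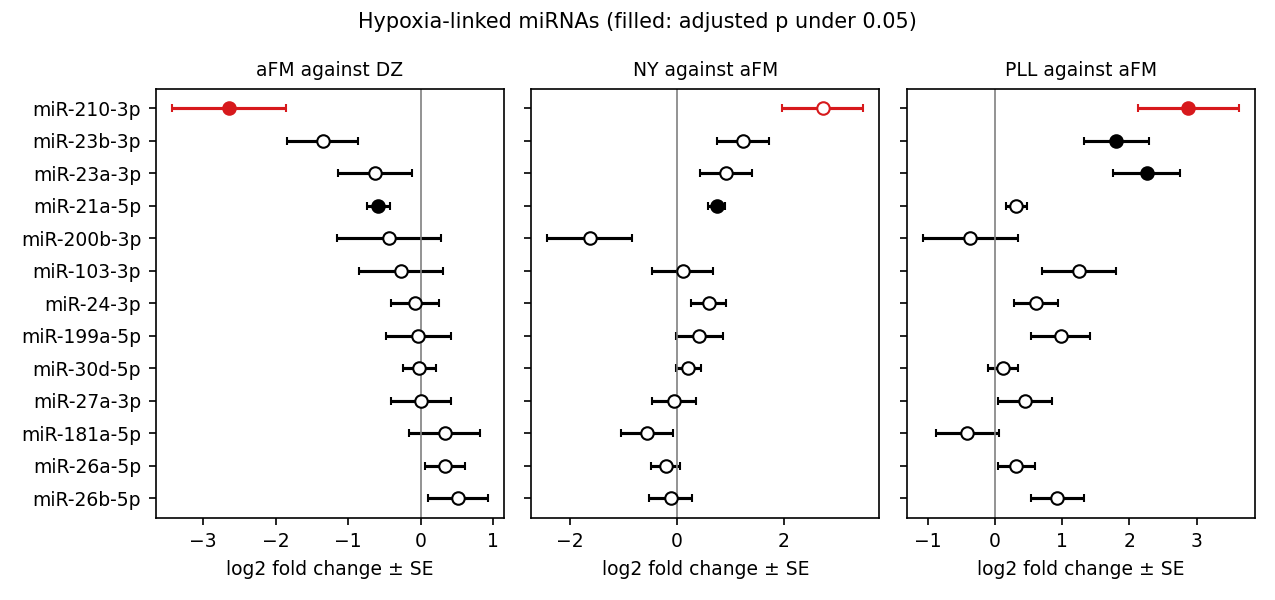
log2 fold change ± SE (x axes) of the 13 tested hypoxia-linked miRNAs (y axis) in aFM against DZ, NY against aFM and PLL against aFM; filled points have adjusted p under 0.05 and miR-210-3p is red. miR-210-3p has the most extreme value of the 13 in each panel, at -2.65, 2.73 and 2.88.

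The miRNAs whose levels ran most like miR-210-3p were ranked by Pearson's r over the 12 libraries on log2 CPM. Since the libraries fall into groups and share depth and scaling, r is a description only. The median r of the 131 other tested miRNAs was 0.079. miR-191-5p came first (r = 0.68), followed by miR-486a-3p and miR-486b-3p (0.67 each, with identical counts and so a single measurement), miR-146a-5p (0.65) and miR-365-2-5p (0.64). miR-486a-3p, from an erythroid hairpin, averaged 293 CPM in PLL, 541 in NY, 148 in aFM and 564 in DZ. miR-146a-5p, which dampens NF-κB signalling, averaged 1626 CPM in PLL, 940 in NY, 573 in aFM and 2187 in DZ. After the group means were taken out, r with miR-210-3p was -0.32 for miR-191-5p, 0.29 for miR-486a-3p, 0.033 for miR-146a-5p and 0.35 for miR-365-2-5p, so within groups the first of these ran the other way. At the other end were miR-411-5p (r = -0.82), from the imprinted Dlk1-Dio3 cluster, miR-3960 (-0.77), linked to osteoblast differentiation, and miR-10a-5p (-0.73), encoded in a Hox cluster. miR-411-5p had 30, 30 and 18 counts in the aFM libraries, against 0 to 3 in each of the other 9.

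**Figure D5:**
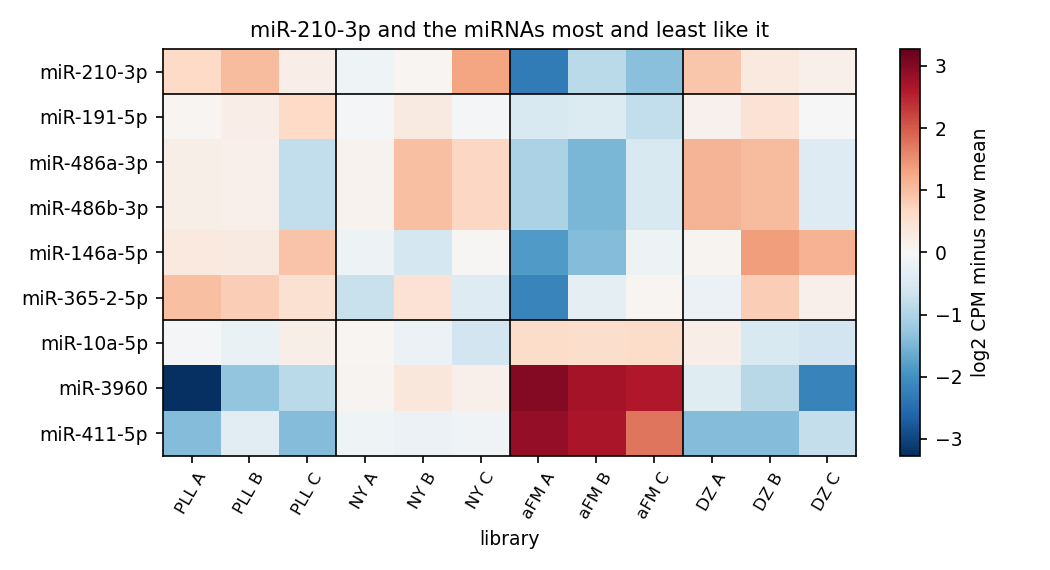
log2 CPM minus the row mean (colour) of miR-210-3p (top row), the 5 miRNAs with the highest Pearson r with it (next rows) and the 3 with the lowest (bottom rows), in each library (x axis) of PLL, NY, aFM and DZ. The aFM libraries are the lowest block of the top row, and the highest of the rows of miR-3960 and miR-411-5p, whose r was -0.77 and -0.82.

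Markers of the labelled and other cell types were summed beside these results. All 8 mesenchymal markers were detected in each group, and their sum ran from 55785 to 114865 CPM in PLL, 86974 to 106805 in NY, 81592 to 98459 in aFM and 92425 to 98654 in DZ. The highest PLL sum was that of replicate A, where miR-140-3p had 4407 counts, against 111 to 215 in each other library. PLL replicates B and C summed to 65922 and 55785 CPM. Of the 8, miR-145a-5p was called lower in aFM than in DZ, where 9.85% of all tested miRNAs were, on 2, 0 and 0 counts against 2, 15 and 11. miR-143-3p was called lower in PLL than in aFM (log2 fold change -0.99), NY (-1.14) and DZ (-1.13). In that direction 4, 5 and 4 of the 132 tested miRNAs were called. The 4 leukocyte markers summed to 1522 to 4240 CPM in PLL, 2300 to 3420 in NY, 1757 to 2485 in aFM and 3334 to 3352 in DZ, with miR-142a-3p at 0 in NY and DZ. miR-142a-5p, the 1 of them tested, was called lower in aFM than in DZ (log2 fold change -0.91). The 4 erythroid markers summed to 34268 to 76042 CPM in PLL, 67559 to 118955 in NY, 52570 to 83700 in aFM and 65393 to 122923 in DZ, with miR-144-3p at 0 in NY and miR-144-5p at 0 in DZ. Of the 2 tested, miR-486a-5p was called lower in aFM than in DZ (-1.07). The 2 endothelial markers ran the other way, at 1241 to 2553 CPM in PLL, 365 to 920 in NY, 5021 to 5271 in aFM and 525 to 1420 in DZ, with miR-126a-5p at 0 in NY. miR-126a-3p, the 1 tested, was called higher in aFM than in DZ (2.63), lower in NY than in aFM (-3.06) and higher in PLL than in NY (1.76). In those directions 12, 4 and 4 of the 132 tested miRNAs were called. The 6 epithelial markers summed to 595 to 763 CPM in PLL, 456 to 797 in NY, 306 to 980 in aFM and 656 to 1988 in DZ, with miR-141-3p at 0 in NY, aFM and DZ and miR-429-3p at 0 in PLL and aFM. The liver marker miR-122-5p held 3045 to 8604 CPM in PLL, 2221 to 3256 in NY, 15101 to 16077 in aFM and 1694 to 40633 in DZ. Without aFM replicate A or B, or DZ replicate B, 0 miRNAs were called lower in aFM than in DZ. The calls of miR-145a-5p, miR-142a-5p and miR-486a-5p were therefore lost in those fits. The part of the marker miRNAs in the levels of miR-210-3p was not tested.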

How the data were processed

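The series' design text describes small RNA libraries made with a NEBNext kit from vesicles isolated by ultracentrifugation and sequenced on a NovaSeq, while the labels' extract protocol speaks of mRNA-seq libraries. The conflict was not resolved, and the table holds miRNA rows. The authors deposited 1 table of raw read counts with 3509 rows, of which 1978 carry a mouse miRNA name and 1531 are predicted loci. The submitters' processing notes name FastQC, STAR, StringTie, DESeq2 and mm39, with no versions or roles. The handling of reads that match several miRNAs is not given in the sources used here.

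Annotated counts came to 17607 to 60436 per library, of 68647 to 214303 in all. CPM was computed on annotated counts. Tests used edgeR 4.0.16 (R 4.3.3): TMM scaling, the default filter on low counts (minimum count of 10, total of 15), which kept 132 miRNAs (98.0% of annotated counts in the library where that share was lowest), 1 quasi-likelihood fit of the 4 groups over all 12 libraries and Benjamini-Hochberg adjustment, with a call at adjusted p under 0.05. The fit was tested on simulated data. DESeq2 1.42.0 and other scalings, filters and fits were alternatives. Log2 CPM used a prior count of 2. Exact permutation tests and Clopper-Pearson intervals (95%) came from Python 3.11.15 with SciPy 1.17.1. Named miRNAs were the miR-210 strands, the called members of the hypoxia list, the member of smallest p where none was called, and the 5 miRNAs most and 3 least like miR-210-3p. Members and lists were chosen with earlier results of these data known.

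Replicate letters are shared between groups with no stated meaning. Deviations from the group means correlated above 0.1 for every letter only in NY against DZ (0.13 to 0.34), where the replicate block changed no call. In aFM against DZ they correlated at 0.062 to 0.23, and in the other comparisons at -0.21 to 0.073. No label states a pairing, so the main tests left the libraries unpaired. Sequences and coordinates are RefSeq's on GRCm38.p6, and no coordinate was converted.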

Additional observations from a re-analysis of the deposited data

How the results depend on the processing

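miR-210-3p kept its direction in the 3 comparisons with aFM under every alternative that gave a value. In aFM against DZ its log2 fold change was no longer called with RLE factors (-2.57), library totals (-2.54), no filter (-2.60) or the replicate block (-2.71). In NY against aFM it was called with all rows in the library size (3.16) and in DESeq2 (2.71), and in PLL against aFM it was not called with RLE factors (2.75), no filter (2.77) or the replicate block (2.92). NY against DZ was -0.12 with upper quartile factors, and PLL against NY was -0.061 in a fit of those 2 groups. The joint statistic passed with all rows (F 10.9) and in the DESeq2 likelihood ratio test (13.2). On totals of all rows the levels were 182 in PLL, 91.4 in NY and 63.4 in DZ, and the permutation p was 0.0005195. The causes were not tested. At a minimum count of 20, and in fits of 2 groups other than PLL against NY, miR-210-3p did not pass the filter.

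Leaving out 1 library at a time, the log2 fold change ran from -3.43 to -2.22 in aFM against DZ, -0.59 to 0.38 in NY against DZ, -0.28 to 0.40 in PLL against DZ, 2.03 to 3.39 in NY against aFM, 2.29 to 3.50 in PLL against aFM and -0.25 to 0.79 in PLL against NY. The joint F ran from 3.12 to 5.44, and mean CPM from 340 to 514 in PLL, 244 to 517 in NY, 33.8 to 90.3 in aFM and 332 to 416 in DZ. The number of hypoxia-linked members called ran from 0 to 2 in aFM against DZ, PLL against DZ and NY against aFM, and from 0 to 3 in PLL against aFM.

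That number, 2 in aFM against DZ, became 0 with RLE factors, library totals, no filter, a minimum count of 20 or the replicate block, and 1 with all rows or 2 groups. In PLL against DZ it became 2 with a minimum count of 20 or DESeq2 and 7 with all rows. In NY against aFM it became 0 with RLE or upper quartile factors, library totals, no filter or the replicate block, and 2 with 2 groups. In PLL against aFM, 3 became 1 with RLE factors, the replicate block or 2 groups, and 11 with all rows. In PLL against NY it became 4 with all rows. Of all tested miRNAs, 25 were called in aFM against DZ, against 16 with RLE factors, 8 with library totals, 15 with no filter, 13 at a minimum count of 20 and 10 with the replicate block. In NY against DZ, 1 became 7 with no filter and 6 in DESeq2. In PLL against DZ, 5 became 2 with library totals, 17 with no filter, 3 with the replicate block, 1 with 2 groups and 20 in DESeq2. In NY against aFM, 5 became 11 with no filter, 2 with the replicate block, 29 with 2 groups and 15 in DESeq2. In PLL against aFM, 12 became 25 in DESeq2, and in PLL against NY, 9 became 16 with no filter. The fit with all rows tested 853 rows, predicted loci included, of which 130 are among the 132 miRNAs, so its calls count rows and not miRNAs. They were 94 in aFM against DZ, 123 in NY against DZ, 301 in PLL against DZ, 213 in NY against aFM, 311 in PLL against aFM and 216 in PLL against NY. With 1 library left out, calls ran from 5 to 26 in aFM against DZ, 1 to 2 in NY against DZ, 4 to 17 in PLL against DZ (17 without PLL replicate B), 1 to 12 in NY against aFM, 4 to 20 in PLL against aFM and 5 to 11 in PLL against NY. At 0 to 24 counts per library, depth limits every value of miR-210-3p.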
